A study of Rattus norvegicus with 20 samples.

Results

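The promoters described here belong to 69 genes of the proteasome and of the ubiquitin conjugating enzymes (E2 enzymes), out of 14368 genes named in the authors' peak lists. They were chosen by name alone: 42 names began with Psma to Psmg and a digit, and 27 began with Ube2. A gene is named in those lists only where at least 1 array had a peak near its start, so the choice rests on the peaks to that extent. The 69 genes lay in 68 of 14540 tiled promoters, since Psma3 and its close copy Psma3l share 1. Psmc3ip, a factor of homologous recombination, and Ube2cbp, which the reference table calls Ube3d, matched by spelling and were kept. Psmb5 was not among the names and was not analysed here.

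The proteasome is the barrel-shaped protease that degrades proteins tagged with chains of ubiquitin. Its 20S core has rings of alpha subunits, which form the gate, and rings of beta subunits, some of which cut; its 19S cap has ATPases, which unfold the substrate, and non-ATPase subunits, which bind and strip the ubiquitin. E2 enzymes carry ubiquitin, or a relative of it such as NEDD8, to the substrate. NF-kB p65 itself is held in the cytoplasm by an inhibitor that must be ubiquitinated and degraded by the proteasome before p65 can enter the nucleus and bind DNA.

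In ChIP-chip, chromatin bound by a protein is pulled down with an antibody and read on tiled arrays; here the protein was NF-kB p65 and the chromatin came from livers of wild-type male Sprague Dawley rats aged 8 to 10 weeks. Ethanol supplied 36% of the calories of one diet for 5 weeks, and carbohydrate replaced it in the diet of the pair-fed rats. The livers were sampled around 70% partial hepatectomy, which starts regrowth of the lobes that stay. The 20 arrays formed 6 groups: carbohydrate diet at 0h (n = 3 arrays), 1h (n = 3) and 6h (n = 4), and ethanol diet at 0h (n = 3), 1h (n = 3) and 6h (n = 4). All tissue was whole liver lobe, so the signal is a mixture over the cell types of the liver, and a change in cell makeup and a change per cell cannot be told apart. The arrays measure binding and not expression, so the labelled tissue could not be checked by its markers.

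Promoter signal is the deposited log ratio, taken as log2 since its base is not stated, multiplied by -1, centred on each array's median and averaged over 1 window of at most 500 bp per tiled promoter. The window was the one with the highest mean over all 20 arrays, and held 4 to 6 probes in the members. Peaks lay below 0 in the deposited values, so the direction used here, higher meaning more p65, is the likely one but is not stated in the labels. Of the members' windows 27 lay within 1 kb of the member's start, 17 promoters were shared with a gene that is no member, and in 7 the nearest start was that of the other gene. The labels number biological replicates and name no animals. The last number of each array identifier, taken here as the animal, gives 16 animals, 4 of them with 2 arrays. So p-values measure the spread between these arrays, which may be technical. Each array gave 2874 to 9387 peaks, and the number of probes, not a read depth, limits the precision. Array runs and slides were inferred from the form of the identifiers, and the labels name neither. On that reading 5 of the 6 arrays of 0h lay in 1 array run. Another (called the third run) held 11 arrays of 1h and 6h, from both diets. Ethanol 0h replicate 2 lay in a run apart from the other ethanol 0h arrays, and the spread of its deposited values (interquartile range 0.727, against 0.315 and 0.336) was wider.

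Promoter sequences, 250 bases before to 50 bases after the RefSeq start, were found for 60 of the 69 genes. Member promoters were richer in G and C than the 33469 promoters of the table, at a median of 60.0% against 51.7%. The GC box, GGGCGG on either strand, to which Sp1 binds, was in 75.0% of the member promoters and in 33.1% of all. The core of the antioxidant response element, TGACNNNGC on either strand, was in 21.7% against 12.1%, and the NF-kB consensus on either strand was in 10.0% (6 genes: Psmb2, Psmc3ip, Psmd11, Ube2d2, Ube2d3 and Ube2k) against 7.5%. These matches describe letters and were not tested against the arrays. Sequences are printed for the 5 genes that passed a test below, whose window overlapped these 300 bases, and that held 1 of these motifs. They were chosen after their values were seen. Coordinates are of build GRCr8 and serve the sequences only. Capitals mark the NF-kB consensus in Psmd11, first base at position -120, and GC boxes in the other 4, where those of Ube2e2 overlap and, like that of Psma6, read as GGGCGG on the opposite strand. Windows were placed from the start in the peak lists, which was not aligned to the RefSeq start. Taking these starts as equal, the marked motifs of Psmg1 and Ube2e2 lie within the window. Those of Psmd11 (window -558 to -166), Psma6 (-726 to -227) and Psmd10 (21 to 421) lie outside it, by the starts of its probes.
Psmd11 (chr10:65932093-65932392, plus strand): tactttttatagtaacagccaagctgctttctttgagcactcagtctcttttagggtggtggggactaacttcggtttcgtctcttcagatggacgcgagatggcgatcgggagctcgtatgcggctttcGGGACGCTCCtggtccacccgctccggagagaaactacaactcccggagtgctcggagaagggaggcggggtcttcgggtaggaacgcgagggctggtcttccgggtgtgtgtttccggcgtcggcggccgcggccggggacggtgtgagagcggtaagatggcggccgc
Psmd10 (chrX:109453556-109453855, minus strand): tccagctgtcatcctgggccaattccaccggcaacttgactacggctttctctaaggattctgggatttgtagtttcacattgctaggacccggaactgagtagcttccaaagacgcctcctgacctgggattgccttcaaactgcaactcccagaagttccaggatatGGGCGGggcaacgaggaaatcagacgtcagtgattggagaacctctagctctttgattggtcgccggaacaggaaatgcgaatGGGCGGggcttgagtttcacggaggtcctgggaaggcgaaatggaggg
Psmg1 (chr11:48754991-48755290, minus strand): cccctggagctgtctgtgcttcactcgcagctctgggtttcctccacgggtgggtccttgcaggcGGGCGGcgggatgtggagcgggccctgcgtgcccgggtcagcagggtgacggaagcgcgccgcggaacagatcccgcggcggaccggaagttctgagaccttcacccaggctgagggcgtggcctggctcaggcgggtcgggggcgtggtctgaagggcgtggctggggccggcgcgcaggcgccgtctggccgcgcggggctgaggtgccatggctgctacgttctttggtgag
Ube2e2 (chr15:9410817-9411116, plus strand): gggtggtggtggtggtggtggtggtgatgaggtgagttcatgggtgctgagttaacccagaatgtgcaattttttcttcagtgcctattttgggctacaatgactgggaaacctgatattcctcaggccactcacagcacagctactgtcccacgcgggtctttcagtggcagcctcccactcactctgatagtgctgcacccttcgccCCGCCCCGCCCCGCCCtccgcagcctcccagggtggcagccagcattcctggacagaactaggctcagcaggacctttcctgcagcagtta
Psma6 (chr6:78514097-78514396, plus strand): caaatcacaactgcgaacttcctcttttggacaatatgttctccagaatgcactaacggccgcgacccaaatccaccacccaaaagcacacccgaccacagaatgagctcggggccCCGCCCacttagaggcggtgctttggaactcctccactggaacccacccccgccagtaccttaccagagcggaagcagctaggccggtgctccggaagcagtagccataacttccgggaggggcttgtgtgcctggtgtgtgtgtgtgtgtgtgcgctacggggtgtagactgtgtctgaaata

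**Figure D1:**
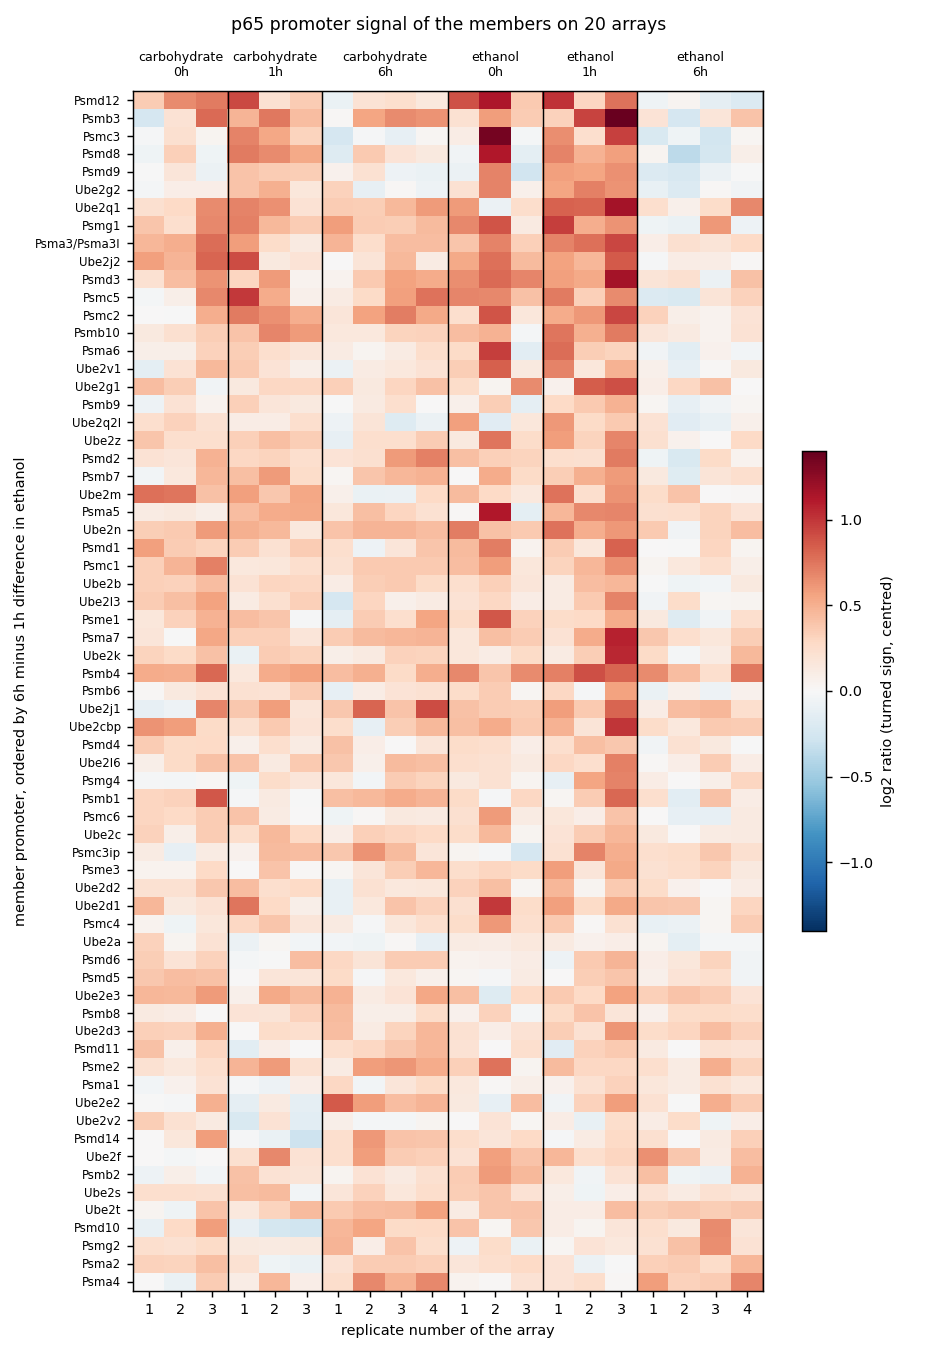
Promoter signal (colour, log2 ratio, red higher) of the member promoters (rows, 1 of the 68 not shown, ordered by their 6h minus 1h difference in ethanol-fed rats) on the 20 arrays (columns, by group and replicate number). The columns of ethanol 1h are the reddest block, with array medians of 0.315 to 0.579, and those of ethanol 6h the palest, with medians of 0.088 to 0.188.

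In ethanol-fed rats the p65 signal at member promoters was lower at 6h than at 1h after hepatectomy. Of 68 member promoters 22 fell and 1 rose at an adjusted p under 0.05 (limma), against 16.1% of all 14540 promoters that fell and 7.73% that rose. The falls ran from Psmd12 (-0.77) to Ube2b (-0.33), and Psma2, an alpha ring subunit, was the 1 that rose (0.32). The median member difference was -0.29 log2, against -0.078 over all promoters, and 58 of 68 members lay below 0. In carbohydrate-fed rats the same interval gave 5 members that rose and 2 that fell, against 17.1% and 6.91% of all promoters, with a median of -0.014 against 0.067.

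The median signal of the members on the ethanol 1h arrays was 0.315, 0.326 and 0.579, and on the ethanol 6h arrays 0.153, 0.088, 0.175 and 0.188. The groups do not overlap. Over all promoters the same arrays gave medians of 0.233, 0.2 and 0.327 at 1h and of 0.18, 0.13, 0.224 and 0.232 at 6h, which do overlap. On carbohydrate the members' medians were 0.291, 0.304 and 0.202 at 1h and 0.169, 0.215, 0.312 and 0.32 at 6h, so that these groups overlap. Promoter by promoter, 25 members were lower on every ethanol 6h array than on every ethanol 1h array and 4 were higher, against 19.4% and 12.5% of all promoters. On carbohydrate 7 were lower and 6 higher, against 12.0% and 24.1%.

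Within the third run alone, which has 2 ethanol 1h and 4 ethanol 6h arrays, 35 of 68 members fell and 1 rose, against 24.6% and 10.7% of all promoters. Over the mean of all probes within 5 kb of a start, in place of the best window, 36 members fell and 4 rose, against 25.3% and 20.5%. The count of 23 was 8 without ethanol 1h replicate 3, the array with the most peaks, 15 without ethanol 6h replicate 1 and 12 without ethanol 6h replicate 2. Shares of all promoters in these fits are not given here, so a shift of all promoters cannot be told apart. With arrays scaled to the same spread 11 members fell and 2 rose, and over all promoters 1421 fell and 1786 rose, where the unscaled signal gave 2339 and 1124. With the deposited sign kept, so that windows are those where the deposited ratio was highest, none passed.

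The authors' peak lists show the same interval in counts. On the ethanol 1h arrays 30, 37 and 50 of 69 members had a peak, and on the ethanol 6h arrays 9, 4, 14 and 13. These groups do not overlap, and the other 4 groups lay between 11 and 33. As a share, members with a peak were 43.5%, 53.6% and 72.5% of the 69 at ethanol 1h, against 35.1%, 44.4% and 46.6% of all names on the same arrays. At ethanol 6h they were 13.0%, 5.8%, 20.3% and 18.8%, against 23.9%, 20.3%, 31.4% and 31.0%. Members were thus above the share of all names on each of the 3 arrays of ethanol 1h and below it on each of the 4 of ethanol 6h. On carbohydrate 6h the members were below as well, with 11, 23, 17 and 21 of 69 (15.9%, 33.3%, 24.6% and 30.4%, against 22.3%, 39.4%, 35.8% and 38.5%). Carbohydrate 1h was mixed, with 15, 20 and 29 of 69 (21.7%, 29.0% and 42.0%, against 28.7%, 31.3% and 34.1%). At 0h the members lay above the share of all names on all 6 arrays, with 18, 31 and 33 of 69 on carbohydrate and 21, 32 and 22 on ethanol.

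**Figure D2:**
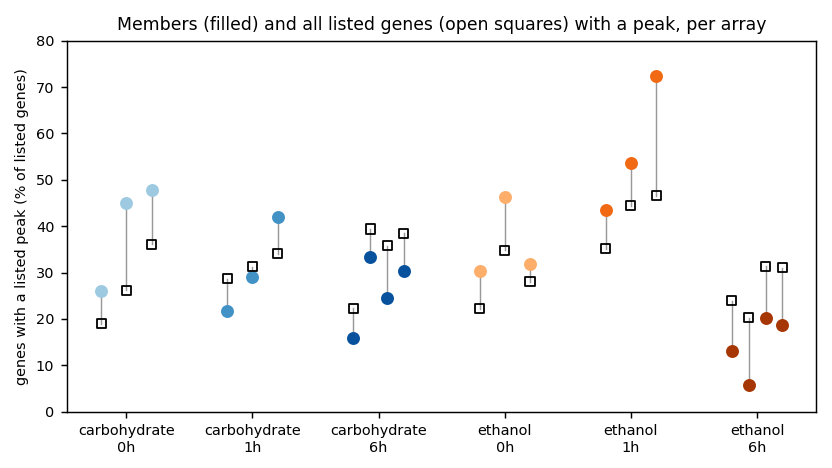
Share of the 69 members (filled circles) and of all 14368 listed genes (open squares) with a peak on each array, in percent, a grey line joining the values of 1 array. The members lie above all genes on the ethanol 1h arrays (up to 72.5%) and below them on the ethanol 6h arrays (down to 5.8%).

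Taking a gene as bound where at least 2 arrays of a group had a peak, 43 of 69 members (62.3%) were bound at ethanol 1h and 9 (13.0%) at ethanol 6h, against 41.6% and 30.2% of all names. Psmb4, Psmc5, Psmg1, Ube2d1 and Ube2f were bound at both of these times, which is 5 of 43 and 5 of 9. On carbohydrate 19 members (27.5%) were bound at 1h and 21 (30.4%) at 6h, against 28.8% and 39.6%, and 11 were bound at both. The share of all names bound at both times was not computed, so these overlaps are not a result about the members. At 0h 23 members (33.3%) were bound on carbohydrate and 20 (29.0%) on ethanol, against 20.6% and 19.7%.

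Peaks were on 10 or more arrays at 15 of 69 members, beside 2731 of all 14368 names, with a median of 6 arrays in both sets. Psmg1, a chaperone that assembles the alpha ring, had a peak on 17 of 20 arrays. Psmb4, a beta subunit, and Psmc2, an ATPase of the 19S base, followed with 15 each. Ube2f and Ube2m, the pair of E2 enzymes for NEDD8, and Ube2q1 had 14, Psmb3 had 13, and Psmc1, Psmc5 and Ube2j1 had 12. At the other end, 7 of 69 members, and 969 of all names, had a peak on 1 array only. Peaks of the members numbered 591, and 46.0% of them lay within 1 kb of the start, against 45.3% of all 118667 peaks.

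Along the promoter, the mean signal over the members dipped at the start itself in all 6 groups and separated most on the flanks. In the bin centred at -750 bp from the start it was 0.16 ± 0.078 (SD, n = 3 arrays) at ethanol 1h and -0.036 ± 0.025 (SD, n = 4) at ethanol 6h, with no overlap between the arrays of these groups. At the same place carbohydrate 1h gave 0.038 ± 0.032 (SD, n = 3) and carbohydrate 6h -0.017 ± 0.03 (SD, n = 4). In the bin centred at -3750 bp the values were 0.075 ± 0.062 (SD, n = 3) at ethanol 1h and 0.033 ± 0.034 (SD, n = 4) at ethanol 6h, and those arrays overlapped. This profile averages all probes and not the best window, which is why its values are lower than the promoter signals above.

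**Figure D3:**
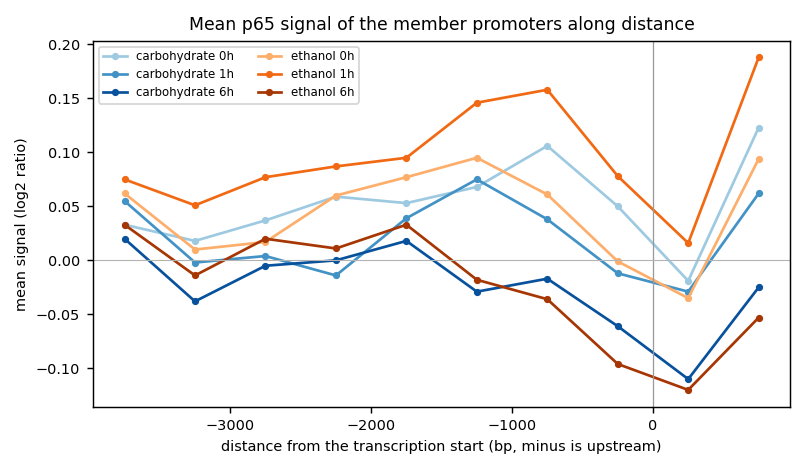
Mean p65 signal over the members (vertical axis, log2 ratio) in bins of 500 bp along distance from the transcription start (horizontal axis, bp), 1 line per group. All 6 lines dip in the bin just after the start, and the ethanol 1h line (0.16 at -750 bp) lies highest and the ethanol 6h line (-0.036 there) among the lowest.

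The 19S ATPases, the 6 motor subunits of the cap, had the largest share of falls among the role groups of the proteasome: 4 of 6 fell from 1h to 6h on ethanol, the median difference was -0.44, and the other 2 (Psmc4 and Psmc6) also lay below 0. Psmc3 stood at 0.65, 0.24 and 0.96 on the ethanol 1h arrays and at -0.21, -0.06, -0.26 and 0.03 on the ethanol 6h arrays. All 4 values of 6h lie below all 3 of 1h, and the difference was -0.74 ± 0.20 (SE, adjusted p = 0.0092, limma). Psmc3 fell on carbohydrate too, from 0.70, 0.54 and 0.31 at 1h to -0.23, -0.02, -0.12 and 0.03 at 6h (-0.60 ± 0.20 SE, adjusted p = 0.0286, limma). It was the 1 member that fell in both diets over this interval with all 20 arrays. In the third run alone Ube2g2, Psmb10, Psmd8 and Psmd9 fell in both diets as well (-0.38, -0.38, -0.36 and -0.33 on carbohydrate). Psmc5 (-0.55) and Psmc2 (-0.53) fell on ethanol without overlap between the arrays, Psmc5 narrowly (lowest 0.33 at 1h, highest 0.32 at 6h). The Psmc5 window lies 2865 to 3345 bp past its start, in a promoter shared with Ftsj3. That of Psmc2 lies nearer to the start of Dnajc2. Psmc1 also fell without overlap (-0.34, adjusted p = 0.0495, limma). Its adjusted p lies at the threshold, and Psmc1 did not pass with the animal as a random block (adjusted p = 0.0574, limma).

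Of the 9 non-ATPase subunits of the 19S cap 3 fell on ethanol and none rose, with a median of -0.36. Psmd12, a scaffold subunit of the lid, had 1.01, 0.30 and 0.76 at ethanol 1h and -0.06, 0.04, -0.13 and -0.19 at ethanol 6h. The difference was -0.77 ± 0.18 (SE, adjusted p = 0.00381, limma), and the groups do not overlap. Psmd12 was also the only member that passed between 0h and 6h on ethanol, from 0.89, 1.13 and 0.37 (-0.88 ± 0.18 SE, adjusted p = 0.0245, limma). Psmd8 (-0.71) and Psmd3 (-0.57), both of the lid, were the others that fell. Psmd3 was at 0.57, 0.53 and 1.16 at ethanol 1h and at 0.18, 0.22, -0.08 and 0.41 at ethanol 6h.

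**Figure D4:**
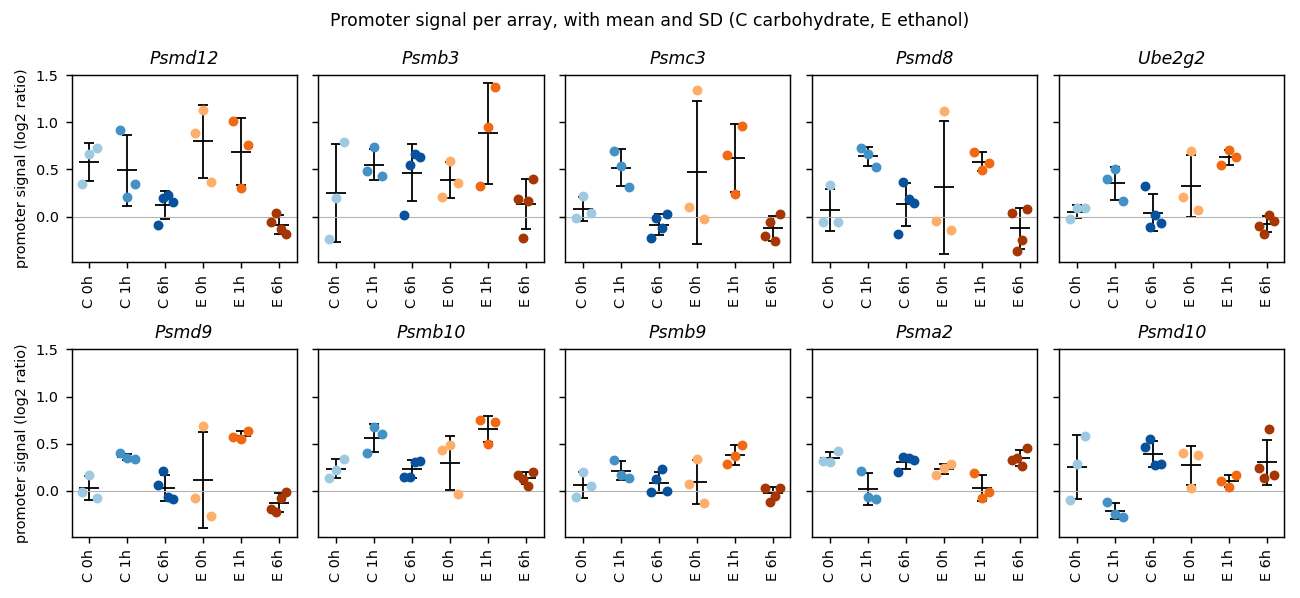
Promoter signal (log2 ratio, vertical axis) of 10 members on each array, by group (C carbohydrate, E ethanol, at 0h, 1h and 6h); points are arrays, and the bar and whiskers give the mean and SD over 3 or 4 arrays. The first 8 genes fell from 1h to 6h on ethanol (Psmd12 by 0.77 log2 to Psmb9 by 0.41), Psma2 rose (0.32), and Psmd10 rose on carbohydrate (0.61).

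Among the assembly chaperones 2 of 6 fell on ethanol. Psmd9, which helps to put the ATPase ring together, was at 0.57, 0.55 and 0.64 at ethanol 1h and -0.19, -0.22, -0.08 and -0.01 at ethanol 6h (-0.71 ± 0.14 SE, adjusted p = 0.0013, limma). Psmg1 was at 0.97, 0.51 and 0.63 at ethanol 1h and at -0.06, -0.09, 0.61 and -0.07 at ethanol 6h. Replicate 3 of 6h lies inside the range of 1h and the other 3 lie below it, with a difference of -0.61 (adjusted p = 0.0168, limma).

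Psmd10 (gankyrin), a chaperone of the ATPase Psmc4 that is known as an oncoprotein of liver, went the other way on carbohydrate. It was at -0.10, 0.28 and 0.58 at 0h, at -0.12, -0.25 and -0.28 at 1h, and at 0.47, 0.55, 0.27 and 0.28 at 6h. The fall to 1h was -0.47 ± 0.15 (SE, adjusted p = 0.0402, limma) and the rise to 6h was 0.61 ± 0.14 (SE, adjusted p = 0.00308, limma). On ethanol it lay at 0.10, 0.04 and 0.17 at 1h and 0.24, 0.14, 0.66 and 0.17 at 6h, which overlap. Its window starts just after the transcription start in the peak lists, where Psmd10 is on the plus strand. The sequence printed above is on the minus strand of GRCr8, and its start was not aligned to that of the peak lists.

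In the 20S core 2 of 7 alpha promoters fell and 1 rose on ethanol, and 1 of 6 constitutive beta promoters fell. The promoter shared by Psma3 and Psma3l had 0.69, 0.77 and 0.94 at ethanol 1h and 0.09, 0.22, 0.18 and 0.28 at ethanol 6h, groups far apart (-0.61 ± 0.14 SE, adjusted p = 0.00421, limma). Psma6 fell by 0.52. Psma2 was at 0.19, -0.08 and -0.01 at ethanol 1h and at 0.33, 0.35, 0.26 and 0.46 at ethanol 6h. Its carbohydrate values moved alike, from 0.21, -0.06 and -0.09 to 0.20, 0.36, 0.35 and 0.33. With all 20 arrays this rise on carbohydrate did not pass (0.29, adjusted p = 0.0522, limma), and in the third run alone it did (0.42, adjusted p = 0.0083, limma). The Psma2 window lies nearer to the start of Mrpl32, a mitochondrial ribosomal gene. Psmb3, a beta subunit that does not cut, was at 0.32, 0.95 and 1.38 at ethanol 1h and at 0.19, -0.23, 0.17 and 0.40 at ethanol 6h. These groups overlap, because replicate 1 of 1h is as low as the highest of 6h, and the difference was -0.75 ± 0.22 (SE, adjusted p = 0.0137, limma).

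Psmb4 had the highest level of all members, 0.55 ± 0.20 (SD, n = 20 arrays), above 99.4% of all promoters. It was at 0.71, 0.90 and 0.82 at ethanol 1h and at 0.66, 0.43, 0.24 and 0.74 at ethanol 6h, which overlap, and passed no test. Its window lies at -3827 to -3387 bp from its start. Ube2q1 (0.46), Psmd3, Psmg1 and the Psma3 promoter (0.44 each) came next, and these 4 do not differ beyond their spread over arrays (SD 0.24 to 0.30). Lowest were Ube2a (0.04), Ube2v2 (0.07), Psmb9 and Psma1 (0.12 each) and Psmd9 (0.14, to these digits equal with Ube2q2l). The levels describe best windows, which lie above 0 by the way they were chosen.

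The immunoproteasome genes encode the cutting subunits and the activator that interferon brings into the proteasome for antigen processing, and Psmb8 and Psmb9 lie beside the Tap genes in the major histocompatibility complex. On ethanol 2 of these 5 promoters fell from 1h to 6h and none rose. Psmb10 was at 0.75, 0.50 and 0.73 at 1h and at 0.17, 0.13, 0.05 and 0.20 at 6h, well apart (-0.52 ± 0.13 SE, adjusted p = 0.00624, limma). Psmb9 was at 0.28, 0.37 and 0.49 at 1h and at 0.03, -0.12, -0.05 and 0.03 at 6h (-0.41 ± 0.11 SE, adjusted p = 0.0103, limma). Its window lies over 3 kb past the start and it has one of the 5 lowest levels among the members.

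The other immunoproteasome promoters did not pass. Psme1, of the activator, was at 0.26, 0.28 and 0.52 at ethanol 1h and at 0.14, -0.18, -0.05 and 0.23 at ethanol 6h, narrowly apart (-0.32, adjusted p = 0.139, limma). Psmb8 (-0.07) and Psme2 (-0.04) had overlapping arrays, and the Psme2 window lies past 4 kb from its start, nearest another gene. The constitutive counterparts had -0.28 for Psmb6, -0.38 for Psmb7 and -0.20 for Psme3, and none passed. On carbohydrate none of the 5 immunoproteasome promoters passed in any interval with all 20 arrays: the limma fit gave 1 of 5 at an unadjusted p under 0.05 from 1h to 6h, which was Psmb10 (0.40, 0.68 and 0.60 at 1h, then 0.15, 0.15, 0.31 and 0.32, a difference of -0.33, adjusted p = 0.07, limma). In the third run alone Psmb10 passed as a fall on carbohydrate (-0.38, adjusted p = 0.0319, limma). Among these 5, Psmb10 had a peak on 8 of 20 arrays, all 3 of carbohydrate 1h and all 3 of ethanol 1h among them. Psme1 had one on 5, Psme2 on 4, and Psmb8 and Psmb9 on 3 each, where the median over the members was 6. The Psmb10 promoter is shared with Lcat and Ctrl, and those of Psmb8 and Psmb9 with Tap2 and Tap1.

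Of the promoters with Ube2 names, 13 without a narrower role here gave 6 falls on ethanol and no rise, with a median of -0.335. Ube2cbp, which matched by spelling, is counted among the 13 and is not 1 of the 6. Ube2g2, an E2 of protein disposal from the endoplasmic reticulum, had the smallest adjusted p of all members: 0.55, 0.71 and 0.63 at 1h and -0.10, -0.19, 0.02 and -0.05 at 6h (-0.71 ± 0.13 SE, adjusted p = 0.000676, limma). Ube2j2, which is anchored in that membrane, was at 0.56, 0.47 and 0.86 at 1h and at -0.02, 0.10, 0.10 and 0.02 at 6h (-0.58). Ube2q1 was at 0.83, 0.81 and 1.17 at 1h and at 0.24, 0.07, 0.26 and 0.67 at 6h (-0.62). In each of these 3 the groups are apart. The Ube2g2 window lies at -4032 to -3553 bp from its start. Ube2q2l (-0.41), Ube2z (-0.39) and Ube2b (-0.33), an E2 of the DNA damage response, made up the 6. The window of Ube2b lies at -4605 to -4205 bp, nearest the start of Cdkl3. Ube2z did not pass with the animal (adjusted p = 0.0526, limma) or the slide (adjusted p = 0.0532, limma) as a random block.

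The E2 enzymes of the NF-kB pathway build the ubiquitin chains that recruit its kinases or mark its inhibitor. Of these 7 promoters 1 fell on ethanol: Ube2v1, the partner of Ube2n in building signalling chains, at 0.69, 0.16 and 0.49 at 1h and 0.07, -0.12, 0.02 and 0.14 at 6h (-0.42 ± 0.15 SE, adjusted p = 0.0421, limma). The Ube2v1 window lies at -3497 to -3001 bp from its start. Ube2n itself was at 0.76, 0.51 and 0.61 at 1h and at 0.37, -0.05, 0.31 and 0.43 at 6h, groups that do not overlap, and did not pass (-0.36, adjusted p = 0.0677, limma). Ube2l3, an E2 of the linear chain ligase, had -0.33 with the same adjusted p. Ube2d1 (-0.18), Ube2d2 (-0.19), Ube2d3 (-0.06) and Ube2v2 (0.01) had overlapping arrays.

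Among the E2 enzymes of ubiquitin relatives, Ube2m fell on carbohydrate. It was at 0.77, 0.75 and 0.41 at 0h, at 0.57, 0.38 and 0.54 at 1h and at 0.07, -0.09, -0.08 and 0.28 at 6h. Both differences passed, -0.60 ± 0.15 from 0h to 6h (SE, adjusted p = 0.00608, limma) and -0.45 ± 0.15 from 1h to 6h (SE, adjusted p = 0.024, limma), with no overlap. The 3 E2 enzymes of the cell cycle, Ube2c, Ube2s and Ube2t, passed in neither diet from 1h to 6h. Psma6, Ube2q2l, Ube2z and Ube2b stand outside the rule for named genes and were picked after it was seen that they had passed.

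**Figure D5:**
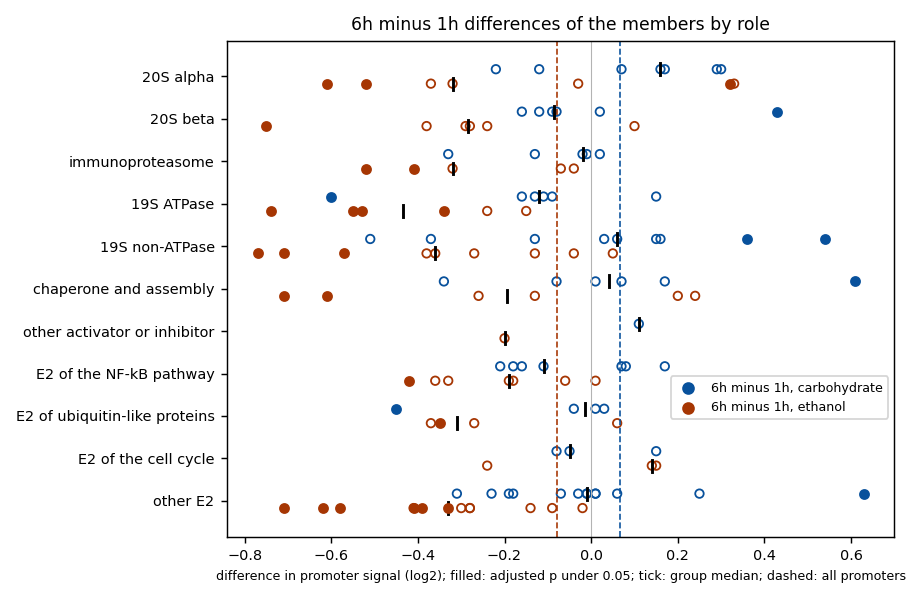
Difference in promoter signal between 6h and 1h (horizontal axis, log2) of each member but Psmc3ip, by role, in carbohydrate-fed (blue) and ethanol-fed (brown) rats; filled points passed at an adjusted p under 0.05 (limma), black ticks are group medians and dashed lines the medians of all promoters (0.067 and -0.078). The brown points lie mostly left of 0, with the 19S ATPases at a median of -0.44, while the blue points lie on both sides.

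On carbohydrate 5 members rose from 1h to 6h, 2 of them of the 19S non-ATPase group. Ube2e2 was at -0.13, 0.13 and -0.13 at 1h and at 0.86, 0.58, 0.43 and 0.48 at 6h (0.63 ± 0.16 SE, adjusted p = 0.00577, limma). Its window covers the printed run of GC boxes if the start in the peak lists is the RefSeq start, which was not checked. Psmd14, the deubiquitinase of the 19S lid, was at -0.02, -0.09 and -0.29 at 1h and at 0.23, 0.61, 0.40 and 0.39 at 6h (0.54 ± 0.13 SE, adjusted p = 0.00353, limma). Psmb1 (0.43), whose window lies nearest the start of Tbp, and Psmd11 (0.36), a scaffold of the lid, rose as well, along with Psmd10 above. In all 5 the groups do not overlap. The count of 7 that passed on carbohydrate was 4 when either replicate 1 or replicate 3 of carbohydrate 1h was left out, and 3 when replicate 3 of carbohydrate 6h was. Shares of all promoters in those fits are not given. Within the third run it was 6 higher and 6 lower, against 18.8% and 5.36% of all promoters, and with the mean over 5 kb it was 2 higher and 17 lower, against 17.7% and 16.8%. With quantile normalization 3 rose and 7 fell, and 1861 and 1740 of all promoters did, where the main signal gave 2493 and 1004.

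Comparisons with 0h set mostly arrays of different runs against each other: no array of 0h lies in the third run, and ethanol 0h replicate 2 alone shares a run with arrays of 1h, 1 from each diet. With the run as a term, which rests on that link, 0 members passed from 0h to 1h in either diet, and 2 on carbohydrate and 6 on ethanol from 0h to 6h, all lower. From 0h to 1h 1 member passed on carbohydrate (Psmd10, which fell) against 8.64% of all promoters that rose and 2.46% that fell. On ethanol none passed (limma, 11 at an unadjusted p under 0.05), against 0.248% and 0.0275%. From 0h to 6h on carbohydrate 3 rose (Psma4 0.43, Ube2f 0.39 and Psmc3ip 0.37) and 2 fell (Ube2m and Ube2l3, -0.38), against 18.6% and 2.02%. With arrays brought to the same distribution (quantile normalization) 14 members fell from 0h to 6h and none rose, and 1432 of all promoters fell and 1481 rose, where the main signal gave 294 and 2705; the median of all promoters there went from 0.147 to -0.002. On ethanol Psmd12 alone fell, against 0.371% that rose and 0.626% that fell, while quantile normalization gave 3 higher and 10 lower, scaling 2 and 6, and array weights 2 and 8. Arrays did not overlap from 0h to 1h at 12 members that were higher and 12 lower on carbohydrate, against 21.4% and 9.55%, and at 5 and 2 on ethanol, against 6.34% and 5.14%. From 0h to 6h this held for 3 and 10 members on carbohydrate, against 26.0% and 5.8%, and for 3 and 12 on ethanol, against 9.09% and 8.61%. Without ethanol 0h replicate 2, 8 members rose from 0h to 1h on ethanol, and without ethanol 1h replicate 1, 6 did. Without ethanol 0h replicate 3, 9 members fell from 0h to 6h on ethanol, and without any 1 of ethanol 0h replicates 1 and 2 and ethanol 6h replicates 2 and 3 none did. On carbohydrate Psmd10 kept its call from 0h to 1h without carbohydrate 0h replicate 1, when 2 members fell, and lost it without any other 1 array of those 2 groups (-0.31 to -0.52). The 5 calls from 0h to 6h were 1 without carbohydrate 0h replicate 1, 0 without replicate 2 and 8 without replicate 3, and 2, 3 and 2 without carbohydrate 6h replicates 2, 3 and 4. Where a count in this paragraph has no share of all promoters beside it, a shift of all promoters cannot be told apart.

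No member passed between the diets at 0h, 1h or 6h, and none passed in the difference between the diets of the 6h minus 1h change (limma, with 6, 10, 6 and 16 members at an unadjusted p under 0.05). Of all promoters 0.0% passed in any of these 4 comparisons. At 1h 58 of 68 members were higher on ethanol, with a median of 0.16 against 0.034 over all promoters, and 11 were higher on every ethanol array than on every carbohydrate array, against 5.85% of all; none were lower on every array, against 2.94%. At 6h the median was -0.098 against -0.11, and 2 members were lower on every ethanol array and none higher, against 9.21% and 0.303%. At 0h 5 were higher and 8 lower, against 6.34% and 3.01%. The diet difference in the 6h minus 1h change had a median of -0.30 against -0.14 over all promoters.

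Within the third run, with 2 arrays of 1h and 3 or 4 of 6h in each diet, that diet difference passed for 16 of 68 members, all with the lower change on ethanol, against 10.5% of all promoters in that direction and 0.571% in the other. The largest were Psmb3 (-1.06 ± 0.24 SE, adjusted p = 0.00651, limma), Psmb1 and the Psma3 promoter (-0.84 each) and Psmd3 (-0.81). Psma7, Ube2q1, Psmc5, Ube2j2, Psmd2, Ube2e2, Psmd14, Ube2g1, Psmc2, Psmc1, Psmd11 and Psmd12 were the other 12, at -0.73 to -0.53. Psma7, Psmd2 and Ube2g1 are named here because they passed. The Psma7 window lies nearest the start of Ss18l1. In that run 13 of the 16 fell on ethanol, and Psmd14 (-0.03), Ube2e2 (-0.19) and Psmd11 (-0.21) did not pass there. On carbohydrate those 3 and Psmb1 rose (0.33 to 0.66), and the other 12 did not pass (-0.09 to 0.24). In the same run Psma3 and Ube2g1 were higher on ethanol at 1h (0.66 and 0.59) and Psmd2 and Psmc5 lower on ethanol at 6h (-0.50 and -0.51), against 2.19% and 1.8% of all promoters. Over all 20 arrays without ethanol 1h replicate 1, which lies outside that run, 6 members passed in the diet difference. The share of all promoters in that fit is not given, so this is not a result about the members.

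Other genes of the ubiquitin pathway, from a list drawn up for this comparison, gave 2 rises and 15 falls among 48 promoters from 1h to 6h on ethanol, with a median of -0.16. Falls included Nfe2l1 (-0.84), the factor that induces proteasome genes, Ddi2 (-0.58), the protease that activates it, and Adrm1 (-0.51), a ubiquitin receptor of the proteasome. Cul3 (0.89), a scaffold of ubiquitin ligases, and Usp14 (0.43), a deubiquitinase of the cap, were the 2 that rose. On carbohydrate 5 rose and 4 fell, and Nfe2l1 (-0.77) and Ddi2 (-0.39) fell in that diet also.

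Ribosomal protein promoters and respiratory chain promoters, other housekeeping sets, also held more falls than rises on ethanol. Of 144 ribosomal promoters 40 fell and 2 rose, with a median of -0.26, and of 80 respiratory chain promoters 22 fell and none rose, with a median of -0.245. The member share of falls, 32.4%, stood beside 27.8% and 27.5%, and no test set these lists against each other. Among marker promoters of liver cells, 5 of 9 hepatocyte promoters fell on ethanol (median -0.485, array medians 0.47 to 0.82 at 1h and 0.11 to 0.30 at 6h), while 0 of 7 Kupffer cell, 0 of 4 sinusoidal and 0 of 3 cholangiocyte promoters passed. Of 10 lymphocyte and neutrophil promoters 2 rose, and of 7 stellate promoters 2 rose and 1 fell. These are p65 signals and not expression, and their part in the members' result was not tested.

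Base composition moved with the interval as well. Over 9559 promoters with 1 gene and a sequence, the 6h minus 1h difference correlated with the GC content of the 300 base promoter at r = -0.493 on ethanol and -0.377 on carbohydrate, across promoters that share the same arrays. Split into classes of low (up to 51.7%), middle and high GC (from 62.7%) of near equal size, 5.04%, 19.7% and 24.3% of promoters fell on ethanol, and these classes held 6, 20 and 17 of the 43 members with 1 gene and a sequence. Among those 43 members the correlation was 0.154 on ethanol and 0.175 on carbohydrate. The comparison with GC was added after the results were seen, and its part in the members' result was not tested.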

How the data were processed

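The 20 two-colour promoter arrays were used as deposited. The authors' value table holds 1 log ratio for each of 713735 probes and array, taken as log2; the base and the authors' normalization are not given in the sources used here. The deposited peak lists, 1 per array, give each peak's score and a false discovery rate (a q-value) up to 0.19961, per the file headers; the peak caller is not given, and a link in them names a mouse build, so their genome build is not settled. The labels name p65 chromatin in 1 channel and input DNA in the other, while the labelling protocol names IgG.

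Ratios were multiplied by -1, since at least 99.926% of peaks on each array lay below 0, and centred on each array's median. Probes were joined into 14723 regions at gaps of up to 1000 bp, and 14540 had a window of 500 bp with at least 4 probes; the window with the highest mean over 20 arrays was kept. Group means of the 6 groups were fitted with limma 3.58.1 (R 4.3.3) with a variance trend, p-values were adjusted by Benjamini-Hochberg over all 14540 promoters, and 0.05 was the threshold. The script was tested on simulated data. Peaks, sequences and figures used Python 3.11.15, pandas 2.3.3, numpy 2.4.6 and matplotlib 3.10.9. Sequences are RefSeq's on GRCr8, matched by symbol. Over all probes arrays correlated at -0.107 to 0.766. Over the promoter signals they did at -0.425 to 0.815, and arrays of the same group at -0.038 to 0.796.

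Values named are those of at most 10 members with the largest differences per direction among those that passed, the immunoproteasome genes and their counterparts, the E2 enzymes of the NF-kB pathway, the 10 members with peaks on most arrays, and the 5 highest and 5 lowest. The members and lists were chosen with earlier results of these data known. Alternatives were the array run, slide, animal and replicate number as terms, the third run alone, other windows, scalings and the deposited sign, stricter peaks, and each array left out. The core promoter and array weights were added after seeing the data. Some items among the genes counted are not reported here by name.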

Additional observations from a re-analysis of the deposited data

Results flagged for a closer look

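Among 88 tests of the highest or lowest array in the groups of 4, over 43 named members and the number of members with a peak, 4 arrays stood apart from the other 3 of their group, and chance gives about 1 in 20. Psmg1 was at 0.61 on ethanol 6h replicate 3, where the others were at -0.09 to -0.06. Psmb8 was at 0.06 on ethanol 6h replicate 1, against 0.25 to 0.27. On carbohydrate 6h replicate 1, Psmc1 was at 0.21, where each of the others was at 0.37, and Ube2d2 was at -0.10, against 0.15 to 0.21.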

How the results depend on the processing

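Counts of members that passed are given for 1h minus 0h on carbohydrate (1 in the main analysis) and ethanol (0), 6h minus 0h on carbohydrate (5) and ethanol (1), 6h minus 1h on carbohydrate (7) and ethanol (23), and the diet comparisons (0); where the cause of a move is not given, the cause was not tested. With the array run as a term these were 0, 0, 2, 6, 7 and 32 in that order, the diets still 0. In the third run alone 6h minus 1h gave 12 and 36, the diets differed at 2 members at 1h and 2 at 6h, and the diet difference at 16. The mean over 5 kb gave 17, 4, 7, 0, 19 and 40 for the first 6. The deposited sign gave 0 except 5 for 6h minus 0h on carbohydrate. Scaling gave 5, 0, 11, 8, 9 and 13, and quantile normalization 7, 0, 14, 13, 10 and 17. The core promoter gave 4, 1, 5, 0, 7 and 18. Array weights, whose estimate did not fully converge, gave 13, 6, 25, 10, 12 and 27, with 13 for the diets at 6h and 5 for the diet difference. Slide as a random block gave 3 for 6h minus 0h on carbohydrate; animal as a random block gave 20 for 6h minus 1h on ethanol and left the other counts as they were. Leaving out 1 array gave 0 to 2, 0 to 8, 0 to 8, 0 to 9, 3 to 6 and 8 to 24, and 0 to 6 for the diet difference. These counts stand without shares of all promoters, except where given above. They describe the processing and are not results about the members alone.

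After group means were removed, same-numbered arrays of different groups correlated at a mean of 0.067 (-0.224 to 0.504, 46 pairs). Differently numbered ones did at -0.026 (120 pairs). The numbers were therefore not taken to pair the samples, and with the replicate block the counts were 3, 0, 3, 1, 7 and 22. Arrays of the same slide and different groups correlated at 0.172 (-0.131 to 0.504, 11 pairs), against -0.016 on different slides of a run (42 pairs). As a random block the slide had a consensus correlation of 0.191.

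Of the single members, Psmc3ip from 0h to 6h on carbohydrate reversed with the run term (-0.09), over 5 kb (-0.03) and in the core promoter (-0.16), and Ube2f (-0.20) and Psma4 (-0.01) in the core promoter. Psmd11 from 1h to 6h on carbohydrate was -0.01 over 5 kb and Psmb1 -0.17 in the core promoter, as Ube2q2l on ethanol was 0.03. With the deposited sign, where a mirrored sign counts as unchanged, Psmc3ip (0.97), Ube2f (0.18), Psma4 (0.22) and Psmd11 (0.19) on carbohydrate and Psmd8 (-0.30), Ube2q1 (-0.03), Psmb10 (-0.08), Psma6 (-0.07) and Ube2q2l (-0.07) on ethanol reversed. All 23 members that passed from 1h to 6h on ethanol kept direction and call in the third run alone. That run holds 2 of the 3 ethanol 1h arrays and all 4 ethanol 6h arrays by which they were chosen, so this is no separate check.

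Members with a peak averaged 27.3, 21.3 and 18.0 per array at carbohydrate 0h, 1h and 6h and 25.0, 39.0 and 10.0 on ethanol; at a false discovery rate of at most 0.05 these were 12.7, 8.0, 5.8, 8.7, 25.3 and 3.5, and within 1 kb of the start 15.7, 13.3, 7.2, 13.0, 26.7 and 3.0. Signal over windows of 4 to 6 probes and 3 or 4 arrays a group limit the precision. Leaving out ethanol 1h replicates 2 and 3 together was not run.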
